A study of Homo sapiens with 12 samples.

Results

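RNA from the cytoplasm was compared with RNA from whole cells in 1 human cell line, ΔRS-res, using 6 of the 12 libraries of the study. The line derives from Flp-In T-REx 293, an embryonic kidney line (HEK293) in which doxycycline switches on genes placed at a single integration site. In ΔRS-res, doxycycline at 1 µg/ml for 6 days induced chained miRNAs that knock down endogenous PGC-1α, a transcriptional co-activator. It also induced a FLAG-tagged, miRNA-resistant PGC-1α from which the arginine/serine-rich (RS) domain was removed. All 6 libraries carried the same insertion and the same induction, and the line was grown from an individual colony. Replicates 1 to 3 were consecutive passages, so p-values measure the spread between these cultures of a single clone. Whole-cell RNA came from 1 well per replicate and cytoplasmic RNA from 6 pooled wells, lysed in hypotonic buffer without detergent and centrifuged stepwise, the supernatant being kept. Cytoplasm below means this supernatant, and RNA left in the pellets was not measured. A low value therefore does not show that an RNA was absent from the cytoplasm of the cell. Each library was made from 600 ng of RNA depleted of cytoplasmic and mitochondrial rRNA and read as paired ends of 100 bp. Every value is therefore relative to the average RNA of its own fraction, and a log2 value below is cytoplasm over whole cell unless stated otherwise. The study set aside 1 cytoplasmic library of each line, and all were kept here. Members were all transcripts of the deposited table, 251121 of 61860 genes. A mean count above 2 was reached by 128952 transcripts and, after transcript counts were summed, by 26592 genes.

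Most mRNAs leave the nucleus once spliced and are translated on free ribosomes in the cytosol. Messages for secreted and membrane proteins are carried to the endoplasmic reticulum (ER) by a hydrophobic signal near the start of the protein, and are translated on the ER surface. Many long non-coding RNAs, small nucleolar RNAs and transcripts with an unremoved intron stay in the nucleus, and mitochondria make their own mRNAs inside the organelle.

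Counts assigned to genes totalled between 102.3 and 117.8 M in whole-cell libraries and between 106.0 and 139.7 M in cytoplasmic ones. No pair of libraries of a fraction agreed within counting noise. Replicate 3 stood apart from replicates 1 and 2 in both fractions, and each test below was recomputed without it, as without each other replicate. Of 5 markers of HEK293 identity, KRT8, KRT18 and VIM were abundant, whereas NEFM and PAX2 were near the detection limit. Markers of leukocytes, endothelium, fibroblasts and hepatocytes (7 genes, 4 of which had enough counts to be tested) summed to between 4.24 and 5.52 CPM (counts per M counts of the library after TMM scaling) in whole-cell and between 4.27 and 4.68 CPM in cytoplasmic libraries.

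The fraction markers moved in opposite directions. NEAT1, the architectural RNA of nuclear paraspeckles, had 225, 210 and 302 CPM in whole cells and 80.5, 75.3 and 106 CPM in the cytoplasm. KCNQ1OT1, a nuclear antisense RNA of an imprinted domain, had 21.5, 25.1 and 22 CPM against 8.24, 9 and 6.32 CPM. Neither gene's groups overlapped, and both fell in the quasi-likelihood test of edgeR, with p adjusted by Benjamini-Hochberg (NEAT1 log2 -1.49, SE 0.053, adjusted p = 2.3e-09, KCNQ1OT1 log2 -1.55, SE 0.08, adjusted p = 4.03e-08). The whole-cell level was 2.81 times the cytoplasmic one for NEAT1 and 2.94 times for KCNQ1OT1, so the cytoplasmic libraries were depleted of these nuclear RNAs but not free of them. GAPDH, a glycolytic enzyme, had 2887, 2751 and 2685 CPM in whole cells and 3738, 3785 and 3630 CPM in the cytoplasm (log2 0.42, SE 0.062, adjusted p = 0.000182 from edgeR). RPLP0, a ribosomal stalk protein, had 1411, 1312 and 1663 CPM against 1695, 1741 and 2029 CPM (log2 0.32, SE 0.062, adjusted p = 0.00129 from edgeR). Both were higher in the cytoplasm in all 3 pairs but lay under the log2 limit of 0.5 that a call required in addition to an adjusted p under 0.05.

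**Figure D1:**
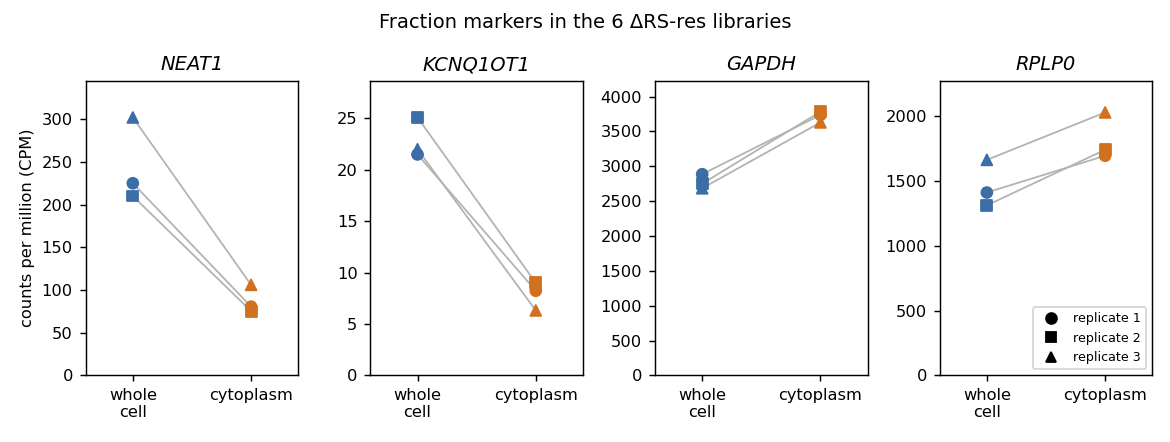
CPM (linear axes from 0) of NEAT1, KCNQ1OT1, GAPDH and RPLP0 in the 3 whole-cell and 3 cytoplasmic ΔRS-res libraries, each line joining the pair of one replicate number. The nuclear RNAs NEAT1 and KCNQ1OT1 were lower in the cytoplasm in all 3 pairs, and GAPDH and RPLP0 were higher in all 3.

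Over all genes, 2191 of 26592 were called higher in the cytoplasm (8.24%) and 6800 lower (25.6%), or 33.8% in either direction, with a median log2 of -0.06. Because these are bulk libraries, each value is an average over the cells of a culture, and differences between cells were not measured. The split depended on the scaling, and 75.6% of calls were lower as fitted, against 70.7% with DESeq2 size factors and 81.8% with library totals. Protein-coding genes contributed 1858 of the higher calls, out of 16139 tested, and 3255 of the lower calls (median 0.12). Genes for long non-coding RNA (lncRNA) were called lower in 2242 of 6732 cases and higher in 174 (median -0.51).

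Small nucleolar and small nuclear RNAs were depleted. Of 163 small nucleolar RNA (snoRNA) genes, which guide chemical modification of rRNA, 144 fell and 1 rose (median -3.08). Box C/D members (SNORD) fell in 54 of 60 cases with a median of -3.58, and box H/ACA members (SNORA) in 81 of 92 with a median of -2.98. The related RNAs of Cajal bodies (SCARNA) fell in 16 of 20 cases. Spliceosomal and other snRNA genes fell in 40 of 67 cases (median -1.89). Taken as a share of all counts, snoRNA genes held 1.01%, 0.866% and 0.993% of whole-cell libraries and 0.128%, 0.0981% and 0.0524% of cytoplasmic ones. The groups did not overlap, and the whole-cell share was 11.9 ± 6.12 times the cytoplasmic one (SD over 3 pairs, two-sided exact permutation p = 0.1 with the pairing ignored, the smallest that 3 against 3 allows).

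Other structured RNAs behaved less uniformly. Among 15 structured non-coding RNAs, 8 fell and 1 rose (median -0.95). SCARNA5 and SCARNA6, which reside in Cajal bodies, fell by 3.31 and 3.23. RMRP, the RNA of the RNase MRP complex that processes rRNA in the nucleolus, had 2111, 1906 and 1918 CPM in whole cells against 1059, 982 and 761 CPM in the cytoplasm (log2 -1.09). TERC, the RNA template of telomerase, went from 26.8, 20.7 and 25.9 CPM to 13.9, 15.1 and 9.43 CPM (log2 -0.95). RNY1, a Y RNA bound by the Ro protein in the cytoplasm, was the member that rose, from 5.88, 5.27 and 2.62 CPM to 10.6, 7.81 and 3.4 CPM. Its 3 pairs were all positive (log2 0.61) although the groups overlapped, and its call was lost without replicate 1 (log2 0.47) and without the replicate block. RMRP, TERC and the 7SK RNA (RN7SK, log2 -0.31, not called) were named after their values were seen.

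Of the listed lncRNAs with known nuclear roles 6 of 9 tested fell, and 1 rose. MIAT, a nuclear-body RNA, had 3.93, 4.09 and 4.17 CPM in whole cells and 0.556, 0.793 and 0.809 CPM in the cytoplasm (5.65-fold lower, log2 SE 0.128). JPX, an RNA first described as an activator of X inactivation, had 79.4, 87.9 and 79.6 CPM against 118, 123 and 112 CPM (log2 0.52), and its call was lost with filterByExpr, with library totals and without replicate 1. MALAT1, an RNA of nuclear speckles looked at after its value was known, had 1321, 1583 and 2021 CPM against 1161, 1032 and 1546 CPM (log2 -0.40, not called), with overlapping groups.

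Among lncRNA genes with a symbol and a mean of 5 CPM or more, the 10 with the largest decreases were mostly hosts of small RNAs. Genes without a symbol were left out of this ranking. One of them, ENSG00000263244, had a larger decrease and is described below. MIR663AHG had 22.8, 28.1 and 29.8 CPM in whole cells and 0.738, 0.683 and 0.345 CPM in the cytoplasm (log2 -5.54, SE 0.185). MIR17HG, the primary transcript of the miR-17-92 cluster, had 30.4, 29.1 and 28.4 CPM against 3.76, 4.15 and 2.69 CPM (log2 -3.07, SE 0.099). MIR34AHG, MIR222HG, MIRLET7A1HG and MIR29B2CHG fell by between 2.15 and 2.84. SCARNA9 and the snoRNA host SNHG22 fell by 3.02 and 2.64, SLC16A4-AS1 by 3.01 and LINC02226 by 2.18. Counting all 37 miRNA host lncRNA genes tested, a class formed after these names had been seen, 21 fell and 3 rose (median -0.90). Of 24 listed snoRNA host genes 8 fell and 0 rose, led by SNHG12 (log2 -1.27) and SNHG4 (log2 -0.96), a share of 33.3% that equals that of all lncRNA genes. At an unadjusted p under 0.05 in edgeR 12 were lower and 6 higher, and DESeq2 called 7 lower and 0 higher. Few lncRNAs were enriched in the cytoplasm, and 7 met the rule for being named. OTUD6B-AS1 had 5.54, 6.22 and 5.12 CPM in whole cells and 26.2, 27.6 and 21.5 CPM in the cytoplasm (log2 2.15, SE 0.063). LINC00632, which hosts the circular RNA CDR1as, rose by 1.13, and the others, MIR924HG, LINC01515, HHLA3, JPX and PURPL, by between 0.50 and 0.95. The calls of HHLA3 and PURPL were lost with filterByExpr and with library totals.

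Messages for proteins made on the ER were depleted from the cytoplasmic supernatant. All 23 listed genes for ER chaperones and folding enzymes fell, with log2 values from -0.68 (SDF2L1) to -3.66 (HSPA5) and a median of -1.99. HSPA5, the ER member of the HSP70 chaperones, had 342, 336 and 214 CPM in whole cells and 26.6, 28.1 and 16.2 CPM in the cytoplasm (log2 -3.66, SE 0.062, adjusted p = 8.87e-11). PDIA3, an ER disulfide isomerase, had 323, 315 and 242 CPM against 30.7, 31.3 and 23.1 CPM (log2 -3.38, SE 0.058). In these and the other ER members named the fractions did not overlap.

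The start of the coding sequence shows how the ER members differ from their relatives elsewhere in the cell, and 6 of these starts are shown because they carry the contrast between paralogs. Each line gives the first 60 coding bases (20 codons within 1 exon, GENCODE annotation, sequence from GRCh38, 5′ to 3′ on the coding strand). Capitals mark codons for hydrophobic residues (alanine, valine, leucine, isoleucine, methionine, phenylalanine, tryptophan and cysteine).
HSPA5 (ER, chr9:125241067-125241126, minus strand): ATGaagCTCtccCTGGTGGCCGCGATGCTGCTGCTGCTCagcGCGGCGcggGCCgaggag
HSPA8 (cytosol, chr11:123061265-123061324, minus strand): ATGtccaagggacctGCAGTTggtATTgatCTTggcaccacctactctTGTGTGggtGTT
HSPA9 (mitochondrion, chr5:138575259-138575318, minus strand): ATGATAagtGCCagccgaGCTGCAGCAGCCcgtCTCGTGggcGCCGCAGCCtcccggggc
PPIB (ER, chr15:64162927-64162986, minus strand): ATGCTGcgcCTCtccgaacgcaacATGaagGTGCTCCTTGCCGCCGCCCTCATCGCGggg
PPIA (cytosol, chr7:44796725-44796784, plus strand): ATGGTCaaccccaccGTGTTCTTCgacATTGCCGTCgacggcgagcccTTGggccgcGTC
COL4A1 (secreted, chr13:110306968-110307027, minus strand): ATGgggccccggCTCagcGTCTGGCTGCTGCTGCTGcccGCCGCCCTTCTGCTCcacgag
HSPA5 held 14 hydrophobic codons of 20, with a longest unbroken run of 9. PPIB held 13 with a run of 9 and COL4A1 13 with a run of 6. The cytosolic HSPA8 held 8 with a longest run of 2, and PPIA 10 with a run of 3. HSPA9, whose product is imported into mitochondria, held 12, but its longest run was 4.

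Paralogs with these starts separated in the data. HSPA8, the constitutive cytosolic HSP70, had 1255, 1234 and 823 CPM in whole cells and 1282, 1371 and 784 CPM in the cytoplasm (log2 0.04, not called, and -0.06 with library totals or -0.03 without replicate 2). HSPA9, the mitochondrial HSP70 encoded in the nucleus, had 932, 924 and 1030 CPM against 1146, 1155 and 1274 CPM (log2 0.31, not called). The difference between HSPA5 and HSPA8 was -3.70 ± 0.0396 on the log2 scale (SD over 3 pairs). PPIB, the ER cyclophilin, had 159, 150 and 120 CPM against 40.1, 41.2 and 35.7 CPM and lay 2.10 ± 0.138 below PPIA, the cytosolic one. Both ER members were thus low in the cytoplasm in all 3 pairs, next to relatives that were not.

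This held for each of the 6 listed families with an ER and a cytosolic member. The ER members (HSPA5, HSP90B1, PPIB, FKBP2, DNAJB11 and PRDX4) were all called lower, and the weakest, FKBP2, fell by 0.998. The cytosolic members lay between 0.04 and 0.33, with 0 called by edgeR or DESeq2, although 5 were higher at an unadjusted p under 0.05. HSP90B1, the ER member of the HSP90 chaperones, lay below HSP90AB1 in all 3 pairs (differences -2.67, -2.77 and -2.96), and FKBP2 showed the smallest gap, 1.33 ± 0.0816 below FKBP1A. In 24 families with a nuclear-encoded mitochondrial member and a cytosolic one, 0 mitochondrial members were called lower by edgeR or DESeq2 (3 were lower and 18 higher at an unadjusted p under 0.05) and 1, the tryptophanyl-tRNA synthetase WARS2, was called higher (log2 0.53, a call lost with library totals and without replicate 3). In 13 of the 24 families the mitochondrial member lay below its cytosolic relative in all 3 pairs. Mitochondrial members ranged from -0.47 (AARS2) to 0.53 with a median of 0.20. AARS2, which charges alanine tRNA in mitochondria, passed the limit with library totals (log2 -0.56) and without replicate 3 (log2 -0.57).

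**Figure D2:**
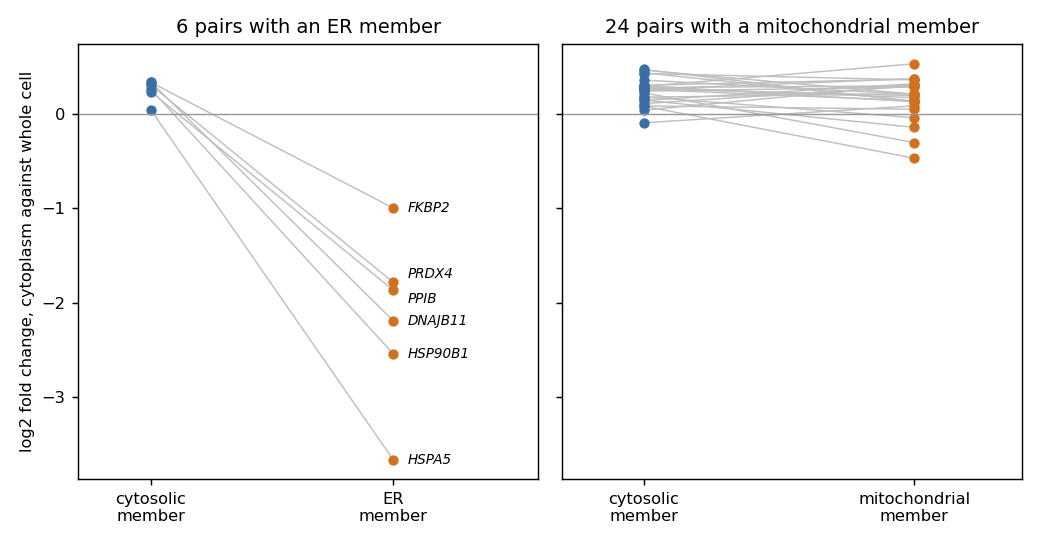
log2 (cytoplasm over whole cell) of cytosolic enzymes and chaperones and of their ER relatives (6 families) or mitochondrial relatives (24 families), with a line joining the members of a family. The ER members lay between -3.66 and -0.998 and their cytosolic partners between 0.04 and 0.33, whereas mitochondrial members ranged from -0.47 to 0.53.

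Messages for extracellular matrix, receptors and transporters fell in the same way. Of 22 matrix genes 20 fell (median -3.05), and the exceptions, COL9A3 among them (log2 0.11), lay between -0.35 and 0.11. COL4A1, the α1 chain of basement membrane collagen IV, had 144, 141 and 152 CPM in whole cells and 7.13, 5.95 and 7.61 CPM in the cytoplasm (log2 -4.41, SE 0.069, adjusted p = 8.87e-11). That 21.2-fold difference was the largest among protein-coding genes of at least 5 CPM encoded in the nucleus. COL4A2, its partner chain, and COL2A1, a fibrillar collagen, fell by 4.32 and 4.25. TNC and FN1, which encode the glycoproteins tenascin-C and fibronectin, fell by 3.71 and 3.53, and the laminin chains LAMA1 and LAMB2 by 3.58 and 3.52. RRBP1, a ribosome-binding protein of the rough ER, had 67.1, 62.7 and 50.1 CPM against 4.75, 3.56 and 5.45 CPM (log2 -3.71, SE 0.141).

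All 27 listed receptors, transporters and lysosomal membrane proteins fell, by between 1.32 (CD63) and 3.49 (NOTCH2) on the log2 scale, with a median of -2.08. NOTCH2, a receptor for Delta and Jagged ligands, had 321, 315 and 307 CPM in whole cells and 29.2, 28.6 and 26.2 CPM in the cytoplasm (SE 0.059). IGF2R, which sorts lysosomal enzymes, had 200, 193 and 159 CPM against 22.3, 22.6 and 15.7 CPM (9.19-fold). The spread between replicates was a small part of these differences.

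Genes of the ER translocation and glycosylation machinery fell in 19 of 24 cases with a median of -0.97. RPN2 and STT3A, subunits of the oligosaccharyltransferase, fell by 2.69 and 2.43. SEC61A1, the pore-forming subunit of the translocon, fell by 2.28. Its small single-span partners SEC61B and SEC61G lay at 0.22 and 0.44 and SEC62 at 0.14, none of them called. These 4 genes were picked out after their values were seen.

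Several lists divided along the same line between their members. In cholesterol synthesis and uptake 11 of 23 genes fell and 2 rose, or 47.8% and 8.7%, against 25.6% and 8.24% of all genes. DHCR7, a membrane enzyme of the last steps, fell by 2.42, whereas the cytosolic or peroxisomal isomerase IDI1 and the soluble sterol carrier STARD4 rose by 0.62 and 0.66. Among 24 targets of the stress factor ATF4, 5 fell (20.8%, against 25.6% of all genes) and 0 rose (median 0.22), led by the lipoprotein receptor VLDLR (log2 -2.15) and the amino acid transporter SLC7A5 (log2 -1.81). With edgeR 16 of the 24 were higher at an unadjusted p under 0.05, and DESeq2 called 0 higher. Among 35 short-lived, early-response mRNAs 5 rose and 2 fell, or 14.3% and 5.71%, against 8.24% and 25.6% of all genes. CCN1 and CCN2, which encode secreted matricellular proteins, went from 13.6, 13.4 and 12.1 CPM to 4.08, 3.96 and 2.96 CPM and from 3.04, 2.72 and 2.18 CPM to 1.22, 0.903 and 0.637 CPM. EGR1, a transcription factor, rose from 11.2, 10.8 and 6.82 CPM to 19.2, 16.8 and 12.6 CPM (log2 0.76).

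All 13 mRNAs encoded by the mitochondrial genome fell (median -3.33). MT-CO3, a subunit of cytochrome c oxidase, had 2949, 2743 and 2770 CPM in whole cells and 202, 156 and 243 CPM in the cytoplasm (log2 -3.84, SE 0.111). MT-ND6, the subunit of complex I encoded on the light strand, had 73.8, 68.1 and 53 CPM against 2.69, 1.83 and 3.46 CPM (log2 -4.61). Mitochondrially encoded genes as a whole took 2.04%, 1.99% and 1.96% of counts in whole cells and 0.185%, 0.129% and 0.248% in the cytoplasm. The ratio was 11.4 ± 3.77 (SD over 3 pairs, two-sided exact permutation p = 0.1 with the pairing ignored, the smallest possible).

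Nuclear genes for the same respiratory complexes did not share that depletion. Of 78 tested, 3 rose and 2 fell (median 0.17), or 3.85% and 2.56%, against 8.24% and 25.6% of all genes. NDUFA5, a complex I subunit, rose from 51.4, 58.3 and 52.5 CPM to 127, 142 and 127 CPM (log2 1.29, SE 0.051), and UQCRB of complex III rose by 0.72. COX6A1 of complex IV had 213, 197 and 224 CPM against 81.8, 96.1 and 81.2 CPM (2.45-fold lower), and NDUFB9 of complex I fell by 0.86. Mitochondrial ribosomal proteins gave 7 higher and 1 lower of 78 (median 0.27), and the 8.97% called higher was close to the 8.24% of all genes. MRPL1 rose by 1.24 and MRPL50 by 0.78, and MRPS25 fell by 0.80.

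Over all protein-coding genes the decrease followed the presence of a hydrophobic stretch. The reference coding sequences of 15985 nuclear genes were translated, and a stretch was scored where any 19 residues in a row reached a mean Kyte-Doolittle hydropathy of 1.6. Without such a window 726 of 10248 genes fell and 1546 rose (median 0.22). With one, 2490 of 5737 fell and 301 rose (median -0.47). Where a window started within the first 30 residues, 1353 of 2359 genes fell, or 57.4%, and 53 rose (medians -0.90, -0.96 and -0.90 in the 3 pairs). Windows elsewhere gave 1137 lower of 3378 (median -0.17). A further class had every window ending within the last 50 residues, the position of tail-anchored proteins, and none starting in the first 30 residues. Of these 454 genes 99 fell and 44 rose (median 0.08). The median was -0.13 with 1 window, -0.64 with 2, -0.595 with 3, -0.78 with 5, -1.21 with 9, -1.45 with 10 and -1.10 with 12 or more, so the order was not strict. The score misses some signal sequences, since COL4A1 and FN1 reached no window and the single windows of HSPA5 and LAMB2 lay beyond the first 30 residues.

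The 10 named protein-coding genes with the largest cytoplasmic enrichment had different known roles. CENPE, a kinetochore motor, had 12.3, 11.1 and 12.9 CPM in whole cells and 124, 135 and 146 CPM in the cytoplasm (log2 3.48, SE 0.066, adjusted p = 1.24e-10). KIF20B, a kinesin of cytokinesis, had 25.7, 28 and 29.2 CPM against 211, 214 and 207 CPM (log2 2.93, SE 0.062). CEP290, a centrosome and cilium protein, had 14.3, 15.8 and 18 CPM against 106, 112 and 132 CPM (log2 2.86). In each the lowest cytoplasmic value was several times the highest whole-cell value. SGO2, which protects centromeric cohesion, rose by 2.85, EEA1 of early endosomes by 2.67, the golgin GOLGA4 by 2.64 and the repair protein BRCA2 by 2.53. TEX15 and SAMD9 rose by 3.07 and 2.99 and ANKRD12 by 2.68. The 10 had GC contents between 34.3% and 38.8% in their reference transcripts, against a median of 49.1% over protein-coding genes, and 0 of them had a hydrophobic window. For the 10 nuclear-encoded genes with the largest decreases GC ranged from 46.1% to 62.3%, and 8 had a window.

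Housekeeping mRNAs of the cytosol lay slightly above the average of their fraction, as did protein-coding genes without a hydrophobic window (median 0.22). Of 28 translation factors 5 rose and 0 fell (median 0.37), led by EIF5B, which joins the ribosomal subunits (79.8, 88.4 and 66.5 CPM against 191, 172 and 178 CPM, log2 1.21). EIF3E, a subunit of the initiation factor eIF3, rose from 166, 189 and 204 CPM to 400, 419 and 466 CPM (log2 1.20). Cytosolic ribosomal protein genes gave 3 higher and 0 lower of 79 (median 0.26), with RPL7 at 0.81 and RPL6 at 0.57, the latter lost with library totals. Proteasome subunits gave 5 higher and 0 lower of 37 (median 0.35), with PSMC6 at 1.01 and PSMA3 at 0.86. The shares called higher were 17.9%, 3.8% and 13.5%, against 8.24% of all genes. In these 3 lists 0 genes were lower at an unadjusted p under 0.05 in edgeR and 0 were called lower by DESeq2. Glycolytic enzymes (17 genes, median 0.28) and cytoskeletal proteins (14 genes, median 0.32) had 0 calls in either direction by edgeR, although 15 and 14 of them were higher at an unadjusted p under 0.05. DESeq2 called 1 glycolytic gene higher and 0 cytoskeletal genes. Of 15 genes that the study followed for export, a list chosen on these cells and so not independent, TFAM, the mitochondrial transcription factor, rose (log2 0.64) and 0 fell (0 lower at an unadjusted p under 0.05 and 0 by DESeq2).

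Zinc finger genes of chromosome 19, repressors of transposable elements in large part, rose in 58 of 232 cases, or 25%, against 8.24% of all genes (median 0.19). They fell in 7, or 3.02%, against 25.6% of all genes. Protein-coding genes without a hydrophobic window were called higher in 15.1% and lower in 7.08% of cases, with a median of 0.22. At an adjusted p under 0.05 in edgeR without the fold limit, 104 of the zinc finger genes were higher and 34 lower. ZNF480 had 6.74, 8 and 6.34 CPM in whole cells and 45.7, 46.8 and 27.2 CPM in the cytoplasm (log2 2.47, SE 0.104). ZNF569 had 11.8, 13.5 and 13.5 CPM against 57.7, 61.5 and 66.1 CPM (log2 2.26). The named members that fell were scarce, ZNF491 at 0.32 to 0.628 CPM on average (log2 -0.98) and ZNF154 below 0.1 CPM in all 6 libraries (log2 -2.16, a call lost in 5 of the alternatives). Replication-dependent histone genes gave 7 higher and 0 lower of 63 (median 0.31, with 2 lower at an unadjusted p under 0.05 in edgeR), and DESeq2 called 3 higher and 0 lower. The share called higher was 11.1%, near the 8.24% of all genes. The called members with the largest values, H2AC1 and H3C3, stayed below 0.3 CPM in all libraries, and the call of H3C3 was lost with library totals, with DESeq2, without the replicate block and without each replicate.

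GC content moved with cytoplasmic enrichment among genes without a hydrophobic window. Over 8482 such genes of at least 1 CPM the Spearman correlation between the GC of the reference transcript and the log2 value was -0.54. It is a description across genes that share the same 6 libraries. When these genes were divided into 4 groups of equal size by GC, in the group of lowest GC (30.7% to 41.5%) 1164 of 2121 genes were called higher, or 54.9%, and 41 lower. In the group of highest GC 13 were called higher and 194 lower. Transcript length (-0.03), coding length (-0.12) and exon number (-0.04) correlated weakly with the log2 value. GC at the last position of codons (-0.49) and in the 3′ untranslated part (-0.48) came close to the whole transcript.

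Libraries of the same fraction also differed by GC. The median of the group of lowest GC minus that of the group of highest GC was 0.47, 0.40 and 0.41 between the fractions in the 3 pairs. Between whole-cell libraries the same difference was 0.15, 0 and -0.15, and between cytoplasmic libraries 0.07, -0.07 and -0.14. Each contrast between fractions was wider than each one within a fraction, but whole-cell replicates 2 and 1 showed a correlation with GC as strong as the fractions did (-0.55). The part of GC-dependent library preparation in these values was not tested. Genes with a window in the first 30 residues were low at every GC, with medians of -1.01, -1.19, -1.24 and -1.17 from the group of lowest GC to that of highest GC.

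At the level of transcripts, 8015 of 128952 were called higher in the cytoplasm (6.22%) and 12824 lower (9.94%), with a median of -0.10. The share of lower calls was 61.5%, against 48.6% with DESeq2 size factors and 80.4% with library totals, which moved the median of all transcripts to 0.01 and -0.32. These counts rest on 3 pairs, since without replicate 1 or 2 edgeR called 0 transcripts (36742 and 33235 at an unadjusted p under 0.05) and without replicate 3 it called 4477. On simulated counts the transcript test made 37 false calls. It recovered 3 of 100 changes of log2 1 and 15 of 100 of log2 2, so the call of a single transcript is weak.

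Transcripts annotated as retaining an intron were depleted. Of 24718 tested, 5279 fell and 241 rose (median -1.15). The medians of snoRNA and snRNA transcripts were lower still (-3.02 and -1.93). Protein-coding transcripts gave 6348 higher and 4469 lower of 57194 (median 0.27). Transcripts annotated as targets of nonsense-mediated decay, a pathway that needs translation, gave 737 higher and 563 lower of 13678 (median 0.21, and -0.01 with library totals). Retained-intron transcripts took 4.16%, 4.37% and 4.48% of all counts in whole cells and 2.71%, 2.67% and 2.55% in the cytoplasm. The fractions did not overlap, and the ratio was 1.64 ± 0.109 (SD over 3 pairs, two-sided exact permutation p = 0.1 with the pairing ignored, the smallest possible). Short reads of an intron do not tell a polyadenylated retained-intron RNA from an unfinished precursor, and the part of either was not tested.

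The depletion was also present within genes. In 6041 genes with at least 20 counts on average of both retained-intron and protein-coding transcripts, the retained-intron sum was lower relative to the coding sum in all 3 pairs for 4646, or 76.9%, and higher in all 3 for 448, or 7.42%. The median difference was -0.94, -1.11 and -1.33 in the 3 pairs.

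A test of isoform shares (edgeR's diffSpliceDGE, Simes p per gene, Benjamini-Hochberg adjustment) called 3357 of 12166 genes (27.6%). A second test, with each gene's total as an offset, was added after simulated data gave false calls with the first, and called 2852 (23.4%). On simulated counts the first test made more false calls than true ones and the second made no call at all, so the call of a single gene is weak and the share in every library is given beside it. The calls of both tests on the deposited data had 2213 genes in common, 65.9% of the first and 77.6% of the second. Among 3126 retained-intron transcripts called in called genes, 3047 had a lower share in the cytoplasm (97.5%) and 79 a higher one. Of all 6504 such transcripts 80% had a lower share, and of protein-coding ones 61.7%. Transcripts annotated for nonsense-mediated decay split into 220 up and 222 down (50.2%).

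Ranked by p among genes with a prominent retained-intron transcript, 8 genes led, with SNHG29 at their head. Its transcript SNHG29-217 made up 13.2%, 12.9% and 11.5% of the gene's counts in whole cells and 0.871%, 1.04% and 0.549% in the cytoplasm (adjusted p = 1.82e-29 in the first test of edgeR and 0.0207 in the second). GAS5-230, from another snoRNA host, went from 12.5%, 12.2% and 7.37% to 2.23%, 2.75% and 0.869%. HMGN1-216, from a nucleosome-binding protein gene, went from 17.1%, 18.3% and 23.6% to 4.98%, 4.59% and 5.43%. TAF1D-215, from a gene for a polymerase I factor, went from 27.4%, 28.3% and 28% to 15.3%, 15% and 8.53%, and BRD2-209, from a bromodomain protein gene, from 7.94%, 8.57% and 7.33% to 3.05%, 3.35% and 2.1%. All of these shares separated the fractions without overlap, but TAF1D-215 was not called by the second test (adjusted p = 0.0535, edgeR).

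The other genes of the 8 were called for different transcripts, and BRD2-209 was not the BRD2 transcript of smallest p. BRD2-225, annotated for nonsense-mediated decay, was listed at 0 in whole cells. It held 2.38%, 1.52% and 4.31% in the cytoplasm (adjusted p = 3.82e-21 in the first test of edgeR). BRD2-208, the prominent retained-intron transcript of BRD2, went from 10.9%, 11.3% and 10.1% to 8%, 8.08% and 5.34%. It was called only by the first test. In MARCHF6, an ER ubiquitin ligase gene, the protein-coding MARCHF6-204 held 4.66%, 6.29% and 3.73% of counts in whole cells and was listed at 0 in the cytoplasm. RPL4-203, annotated as retaining an intron, held 54.9% ± 0.826 of its gene's counts in whole cells and 54.2% ± 0.144 in the cytoplasm (SD, n = 3) and was not called. The corresponding transcript of the elongation factor gene EEF1A1, EEF1A1-207, held 14.4% ± 0.335 and 13.1% ± 0.381 and was called only by the second test. A scarcer retained-intron transcript of RPL4, RPL4-210, went from 3.36%, 3.49% and 3.77% to 2.38%, 2.51% and 1.99% and was called lower by both tests.

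Genes for SR proteins, splicing factors whose RS domains resemble the one removed from PGC-1α, regulate themselves through such transcripts. Of their totals 1 of 14 was called higher (SRSF12, log2 0.52, lost with library totals and without replicate 3) and 0 lower (1 lower at an unadjusted p under 0.05 in edgeR, 0 by DESeq2). Their isoform shares did change, in 11 of 14 genes by the first test and 12 by the second, against 27.6% and 23.4% of all genes tested. Among 37 retained-intron transcripts of these genes 22 were called, all with a lower share in the cytoplasm, as had 97.5% of those called over all genes.

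SRSF4-207 held 17.4%, 19.7% and 18.1% of its gene's counts in whole cells and 6.04%, 5.82% and 4.14% in the cytoplasm. SRSF5-212 went from 18.5%, 17.8% and 25.7% to 4.8%, 6.57% and 7.47%, while the protein-coding SRSF5-217 went from 46.1%, 46.8% and 35.3% to 65.1%, 64.2% and 60.1%. SRSF11-214 went from 17.8%, 20.8% and 24.3% to 8.23%, 7.89% and 8.69%. In each of these the fractions were separate. TRA2A-209 went from 11.8%, 14% and 22.5% to 3.38%, 3.17% and 5.9%, again without overlap. Transcripts of these genes annotated for nonsense-mediated decay moved both ways. SRSF2-208 held 6.63%, 8.32% and 7.97% in whole cells and 14%, 13.7% and 17.6% in the cytoplasm, next to the retained-intron SRSF2-209 at 6.36%, 6.31% and 7.37% against 1.48%, 1.63% and 1.9%. SRSF7-208 went down from 13.2%, 14.9% and 16.4% to 2.65%, 2.94% and 2.34%, and SRSF7-204 went up from 5.53% ± 0.704 to 9.76% ± 0.433 (SD, n = 3).

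The hnRNP genes, whose proteins package nascent RNA, gave the same picture. Of 22 tested in total 1 rose (HNRNPH2, log2 0.53, lost with library totals) and 0 fell (0 lower at an unadjusted p under 0.05, 0 by DESeq2). Isoform shares were called in 15 of 18 genes by the first test and 13 by the second, against 27.6% and 23.4% of all genes tested. All 35 called retained-intron transcripts, out of 66, had a lower share, as had 97.5% of those called over all genes. Genes chosen because their introns are known to be detained in the nucleus were called in 17 of 17 cases by both tests. For CLK1, a kinase of SR proteins, the retained-intron transcript CLK1-210 held 32.9%, 29.6% and 38.7% in whole cells and 6.97%, 10.2% and 11.6% in the cytoplasm, and the coding CLK1-201 went from 29.1%, 29.5% and 21.6% to 67.9%, 66% and 55.2%. The call of CLK1 was lost without replicate 1 or 2. RBM39-223 went from 22.6%, 23% and 28.2% to 9.15%, 7.93% and 8.4%, whereas RBM39-221, annotated as the same type, held 19.5%, 17.7% and 15% in whole cells and 25.1%, 25.2% and 21.8% in the cytoplasm. Of the 17 genes 5 fell in total, or 29.4%, near the 25.6% of all genes, led by MDM4 (208 ± 30.5 CPM against 114 ± 24.5 CPM, SD, n = 3, log2 -0.89) and OGT (log2 -0.83).

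Whether these values belong to ΔRS-res was tested against WT-res, the line with full-length PGC-1α made and induced in the same way, in a joint fit of all 12 libraries. In that fit 2004 genes were called higher and 6374 lower in the cytoplasm of ΔRS-res, and 1575 higher and 6473 lower in WT-res. The difference between the lines was called for 1 of 26690 genes (0.00375%), and 1518 were higher and 687 lower at an unadjusted p under 0.05. That count depended on the test and the libraries, being 407 with DESeq2 and 726 without WT-res replicate 1. One WT-res library goes against its label. The whole-cell library given as WT-res replicate 3 held 22 counts of DDX19B, where the ΔRS-res libraries held 26 to 45 and the remaining WT-res ones 1140 to 2058. Without that pair 1 gene was again called.

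For the genes named above the difference between the lines was not called. HSPA5 had a log2 of -3.67 in ΔRS-res and -3.66 in WT-res (difference -0.01, SE 0.16), and NEAT1 -1.50 and -1.54 (difference 0.04). Without WT-res replicate 3 these differences were 0.14 and -0.15. CENPE was at 3.48 in ΔRS-res (difference between the lines 0.98, SE 0.354, adjusted p = 0.477, and 0.57 without WT-res replicate 3). COL4A1 had -4.41 and -3.95 (difference -0.46, SE 0.13, adjusted p = 0.293, and -0.55 without WT-res replicate 3). PPARGC1A, the gene of PGC-1α, had 348, 360 and 482 CPM in ΔRS-res whole cells and 299, 298 and 404 CPM in the cytoplasm (log2 -0.25, not called). Its counts come from both the endogenous and the introduced copy, and its difference between the lines was -0.32 (SE 0.148, adjusted p = 0.619), and -0.16 without WT-res replicate 3.

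The single called gene was a lncRNA without a symbol, ENSG00000263244 (GRCh38, chr16:9104848-9113181, plus strand). It had 1479, 1394 and 3164 counts in ΔRS-res whole cells, or 13.7, 13.1 and 25.9 CPM, and 0 counts in all 3 ΔRS-res cytoplasmic libraries. A count of 0 allows up to 3 counts, which corresponds to between 0.0225 and 0.0288 CPM per library. Taking the assigned counts as they are, its mean whole-cell level was 705 times the mean of these limits, and single pairs can lie below that. In WT-res it had 3259, 3418 and 3298 counts in whole cells and 1322, 1527 and 2360 in the cytoplasm. It lies over HAPSTR1, a protein-coding gene on the same strand with 330, 324 and 277 CPM in whole cells and 362, 353 and 356 CPM in the cytoplasm (log2 0.21, not called), and the part that the division of shared reads between these genes had in the zeros was not tested.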

How the data were processed

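The deposited table holds expected counts per transcript, which the authors estimated with RSEM after trimming with Trim Galore and alignment with STAR to GRCh38, not scaled between libraries. Tool versions are not given in the sources used here. Every column was joined to its sample by description, and 0 per-sample columns were left unused. Types and positions came from GENCODE 44, which holds 99.83% of the genes and 99.94% of the counts. Expected counts were rounded per transcript and then summed per gene. Genes and transcripts with a mean count above 2 were tested with the quasi-likelihood test of edgeR 4.0.16 (R 4.3.3) after TMM scaling, with the replicate number as a block, and called at an adjusted p (Benjamini-Hochberg) under 0.05 and a log2 fold change above 0.5 in size. Isoform shares were tested with diffSpliceDGE for transcripts of at least 20 counts on average, and the difference between lines as an interaction over all 12 libraries. Protein sequences were translated from the reference coding sequences for scoring only.

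The pairing rests on the study's sample sheet, which gives libraries of one line and number the same cell pellet, although whole-cell and cytoplasmic RNA are described as coming from different numbers of wells. Deviations of same-numbered libraries from their fraction's mean correlated at 0.43, 0.40 and 0.77 over 14952 genes. Those of whole-cell replicate 2 with cytoplasmic replicate 1 (0.55), and of 1 with 2 (0.49), were as high, and pairs with replicate 3 on one side were negative.

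Each test was tried on simulated counts with known changes. The gene and interaction tests recovered most of the larger changes with few false calls. The transcript test missed most changes and made more false calls than true ones. The isoform test also made more false calls than true ones, which is why the test with the gene total as an offset was added. That test made no calls on the simulated counts.

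Genes named were the fraction markers, the 10 genes with the largest change in each direction among called protein-coding and lncRNA genes (mean of at least 5 CPM, same sign in all 3 pairs, encoded in the nucleus and with a symbol), the 2 called members of each list with the largest change in each direction, the compartment pairs, isoforms of 8 top genes and of the SR, hnRNP and detained-intron lists, called interactions, and PPARGC1A. Others, among them the extremes of a list (CD63, SDF2L1), markers of kidney and other cells (KRT8, KRT18, NEFM, PAX2), HAPSTR1, SEC61A1, SEC61B, SEC61G, SEC62, RMRP, TERC, RN7SK, MALAT1, COL9A3 and DDX19B, were chosen after their values were seen. Some genes that this rule names are not reported here. Members and lists were chosen with earlier results of these data known. Alternatives were DESeq2 1.42.0 and its size factors, library totals, other filters, no block, a joint fit and each replicate left out.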

Additional observations from a re-analysis of the deposited data

Results flagged for a closer look

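ENSG00000263244 was flagged because its cytoplasmic enrichment differed between the lines in the interaction test of edgeR (adjusted p = 7.72e-05, and 0.000117 without WT-res replicate 3). The fitted difference, ΔRS-res minus WT-res, was -12.95 on the log2 scale. That size depends on the prior count, because all 3 ΔRS-res cytoplasmic libraries held 0 counts, and is no bound. The value from counts is the 705-fold ratio of means given above, which takes the assigned counts as they are.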

How the results depend on the processing

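Counts of called genes moved by less than 1.5 times under each alternative run except the call without a fold limit, which gave 15021 genes (6999 higher). Transcripts called higher were 12203 with DESeq2 size factors, 3632 with library totals and 15362 with DESeq2 (8015 as reported), and an unadjusted p gave 37161 transcripts (13741 higher, 23420 lower). The median of all transcripts was 0.01 with size factors and -0.32 with library totals, against -0.10. Genes that differed between the lines numbered 610 (576 higher, 34 lower) with no filter and 407 (395 higher, 12 lower) with DESeq2. With 1 pair left out, called genes ranged from 7870 to 8476 (1966 to 2042 higher, 5828 to 6459 lower), called transcripts from 0 to 4477 (0 to 1600 higher, 0 to 2877 lower), genes differing between the lines from 1 to 726 (0 to 717 higher, 1 to 9 lower, the highest without WT-res replicate 1) and genes with a called isoform share from 2010 to 2277. The cause of these shifts was not tested, but each such fit holds fewer libraries. Without the replicate block 7883 genes, 23691 transcripts, 3042 genes by isoform share and 1 gene between the lines were called, and among named genes the calls of H3C3, PURPL and RNY1 and the isoform calls of ANKRD11 and HNRNPM were lost. Signs reversed with library totals for AARS1 (-0.011), CARS1 (-0.009), CARS2 (-0.045), HSPA8 (-0.055) and MARS2 (-0.009) and for the median of nonsense-mediated decay transcripts (-0.011). IARS2 reversed with size factors and with DESeq2 (0.02 in both). HSPA8 ranged from -0.032 to 0.09 with 1 pair left out. The median of the detained-intron list was 0.036 with size factors and with DESeq2 and ranged from -0.094 to 0.079 with 1 pair left out. That of markers of other cell types was -1.97 with filterByExpr, which left 2 of 4 genes, and ranged from -0.02 to 0.323. Of 1459 values of named genes under alternatives 1414 kept direction and call, 31 lost the call, 6 gained it and 8 reversed. Counts per transcript limit the transcript test more than the gene test, and an uncalled transcript is not shown to be unchanged.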
